A study of Mus musculus with 8 samples.

Results

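The 37 genes described here mark or are made by innate immune cells: 17 macrophage genes, 12 cytokine and chemokine genes, 3 genes of neutrophils and the acute phase response, and 5 mast cell genes. They were chosen by symbol, through the accession that the array tables give for each probe, and all 37 had a probe among 36799 gene names on the array. Of these, 36 were measured, meaning that 1 or both channels stood well above background on 3 or more of the 4 arrays, as did 25115 gene names in all. Cxcl2, a chemokine that draws neutrophils, did not pass this filter, with log2 signals between 5.81 and 5.94 in the 8 samples.

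The tissue was white fat of mice aged 5 weeks (strain 129 × C57BL/6, regular chow). The 4 wild-type (WT) samples were compared with 4 Ad/NICD samples, which overexpress NICD, the fragment of Notch1 that is freed inside the cell and acts on genes. The sources used here name neither the fat depot nor the promoter that drives the transgene. Each of 4 arrays with 2 colours carried the WT and the Ad/NICD sample of the same replicate number, and no array had its dyes swapped. The labels call the samples biological replicates and do not say whether each came from a separate mouse, so p-values measure the spread between these arrays.

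The direction of every ratio is the likely one. The authors' value table holds the green (Cy3) channel in its WT columns and the red (Cy5) channel in its Ad/NICD columns, and in the labelling protocol controls carry Cy3 and test samples Cy5. Each sample's own dye tag has it the other way round. If those tags were right, every sign below would turn and WT and Ad/NICD levels would change places. Dye and genotype cannot be told apart for a single probe.

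Adipose tissue holds resident macrophages, which clear dying fat cells and lipid, and smaller numbers of mast cells and neutrophils. Chemokines are small secreted proteins that draw leukocytes along a gradient. Those of the Ccl2, Ccl7 and Ccl8 kind are known to attract monocytes, and those of the Cxcl1 and Cxcl2 kind neutrophils. Mast cells store proteases such as chymases, tryptases and carboxypeptidase A3 in their granules. In whole tissue, more cells of a type and more RNA per cell cannot be told apart.

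In the fit over all gene names (limma on the 4 log2 ratios, Benjamini-Hochberg adjustment), 0 of the 36 measured genes passed an adjusted p of 0.05, where 0.0478% of all gene names did (0.0279% higher and 0.0199% lower). The lowest adjusted p was 0.136, for the chemokine gene Ccl9. At an unadjusted p under 0.05, 10 of 36 were higher in Ad/NICD and 0 were lower, against 6.25% and 8.98% of all gene names. Il6 is among the 10 but passed the filter only through the Ad/NICD samples, and without it the count is 9 of 35. The ratio lay above 0 on all 4 arrays for 7 of 36 and below 0 on all 4 for 0, against 11.1% and 13.3%. The levels of the 4 Ad/NICD samples lay above those of all 4 WT samples for 4 genes, Itgam, Ccl6, Ccl8 and Ccl9, and below them for 0, against 4.21% and 5.57%. When both channels were fitted with a random block for the array, 1 of the 36 passed, Ccl9 (adjusted p = 0.0342 in limma), where 1.97% of all gene names did, so this count is near the background. Without that block 0 passed, against 1.02%, with an adjusted p of 0.0575 for Ccl9.

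Ratios of these genes depended on the array. For replicates 1 to 4 in turn, the 36 genes had median log2 ratios of -0.35, 0.44, 0.18 and 0.80, where the median of all gene names stayed between -0.02 and 0.01. On the array of replicate 1, 29 of 36 lay below 0, and on that of replicate 4, 34 of 36 lay above 0. The array of replicate 4 gave the highest ratio for 26 of the 36 genes and the array of replicate 1 the lowest for 31, where over all gene names these shares were 33.9% and 31.1%. Over the 4 arrays 27 of 36 means lay above 0, with a median of 0.40, or 26 of 35 with a median of 0.39 without Il6. Median centring in place of loess moved the median of all gene names to -0.32 and left 16 of 36 means above 0, while 28 of 36 lay above the median of all gene names in either case. With loess, 20 of 36 means lay above 0 without replicate 4, with a median of 0.06, and 32 of 36 without replicate 1, with a median of 0.52. The count at an unadjusted p under 0.05 on the high side was 18 without replicate 1 (7.03% of all gene names), 4 without replicate 2 (4.15%), 5 without replicate 3 (3.32%) and 5 without replicate 4 (6.63%). Il6, which passed the filter only through the Ad/NICD samples, is among the 18 and in none of the other counts.

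**Figure D1:**
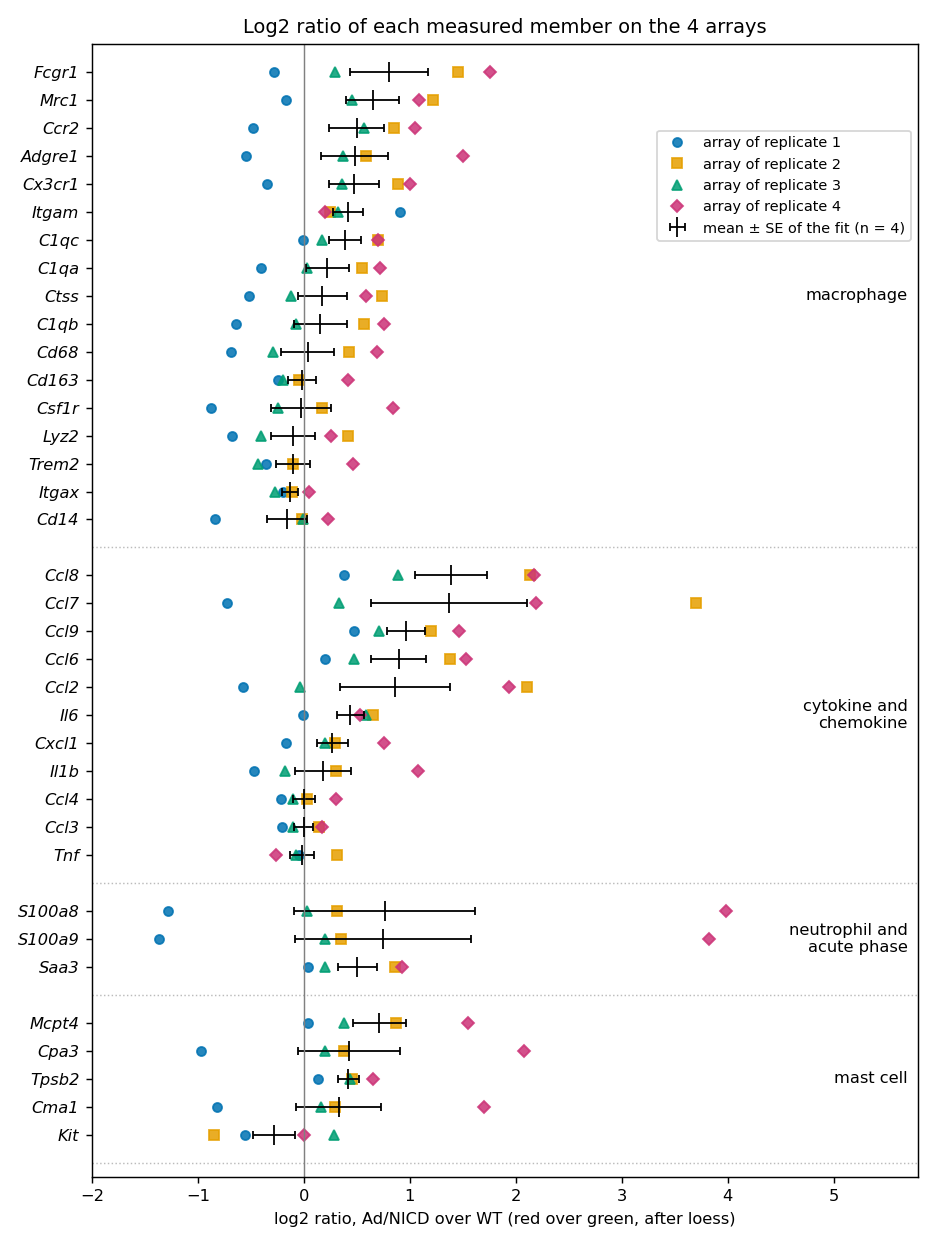
Log2 ratio of Ad/NICD over WT (horizontal axis) for each of the 36 measured genes, by group, with 1 point for each of the 4 arrays and the mean with its standard error from the fit in black. For 31 genes the lowest point is the array of replicate 1, and for 26 genes the highest is that of replicate 4.

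The chemokine genes Ccl8, Ccl9 and Ccl6 had ratios above 0 on every array. Stretches just before the start are shown for Ccl8 and Ccl9, whose Ad/NICD samples all lay above WT. Ccl6 and Itgam met the same rule and are not shown. The stretches come from the RefSeq promoter table (GRCm38.p6), which holds 29 of the 37 genes. Each runs for 150 bases up to the start, 5′ to 3′ on the gene's strand. Capitals mark matches, on either strand, to 6 motifs. The letters were TATAAA for the core promoter box, TGGGAA for the core bound by RBPJ (the DNA-binding partner of the Notch intracellular domain), TGANTCA for AP-1, GAGGAA for the PU.1 core and AGATAA for the motif of GATA factors, and NF-kB was searched with a form of its motif. The Ccl8 stretch lies at chr11:82115035-82115184 on the + strand, and that of Ccl9 at chr11:83578637-83578786 on the - strand.
Ccl8: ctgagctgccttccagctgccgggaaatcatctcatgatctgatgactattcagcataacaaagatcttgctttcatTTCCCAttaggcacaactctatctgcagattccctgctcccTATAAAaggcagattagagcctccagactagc
Ccl9: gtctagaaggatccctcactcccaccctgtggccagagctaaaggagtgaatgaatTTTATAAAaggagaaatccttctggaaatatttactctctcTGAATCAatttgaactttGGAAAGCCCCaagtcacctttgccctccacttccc
In Ccl8 the capitals are an RBPJ core on the reverse strand and a TATA box. In Ccl9 they are 2 overlapping TATA matches on opposite strands, a match to the AP-1 letters with A at the open position N, and an NF-kB match on the reverse strand. The TATA matches of Ccl9 lie 94 and 92 bases before the start, against 32 for that of Ccl8.

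Over the 250 bases before a start, the NF-kB letters were found for 4 of the 29 genes with a window, Ccl9, Cxcl1, Cxcl2 and Il6, all cytokine and chemokine genes, and for 1.65% of 27025 genes in the table. RBPJ cores were found for 9 of 29, against 24.1% of all genes, and PU.1 cores for 13 of 29, against 25.9%. PU.1 is a transcription factor of myeloid cells, and 8 of the 13 macrophage genes with a window held its core. GATA letters were found for 5 of 29, against 11.4%, TATA letters for 8 of 29, against 14.3%, and AP-1 letters for 5 of 29, against 7.82%. Of the genes above WT in every Ad/NICD sample but not shown, Ccl6 held no match to any of the motifs, and Itgam held PU.1 cores only. A match describes the letters of the window and not a bound site.

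Ccl8 encodes a ligand of monocytes and other leukocytes, also called MCP-2. Its log2 signals were 12.93, 11.91, 12.92 and 12.05 in WT replicates 1 to 4 and 13.32, 14.04, 13.81 and 14.22 in Ad/NICD. Every Ad/NICD sample lay above every WT sample, and the WT samples of replicates 2 and 4 were the low ones. Its log2 ratio of 1.39 ± 0.34 (SE, n = 4 arrays) corresponds to 2.63-fold and had adjusted p = 0.184 in limma. By array the ratio ran from 0.38 (replicate 1) to 2.17 (replicate 4).

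Ccl9 and Ccl6 encode related ligands that myeloid cells make, and their genes are next to each other on chromosome 11. Ccl9 had log2 signals of 11.69, 11.57, 11.74 and 11.03 in WT and of 12.16, 12.78, 12.45 and 12.49 in Ad/NICD. The groups did not overlap, and the ratio of 0.96 ± 0.18 was a fold of 1.95 (adjusted p = 0.136 in limma). Ccl6 had 12.62, 12.23, 12.69 and 11.47 in WT and 12.81, 13.61, 13.16 and 13 in Ad/NICD, again without overlap. Its ratio was 0.89 ± 0.26 (adjusted p = 0.221 in limma), and the lowest WT sample was replicate 4 for both genes. Leaving out each replicate in turn gave 1.13 to 1.73 for Ccl8, 0.80 to 1.12 for Ccl9 and 0.68 to 1.13 for Ccl6.

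Ccl3 and Ccl4, the genes of the macrophage inflammatory proteins, follow Ccl6 on chromosome 11 in the RefSeq table, with 0 protein-coding genes between any of these 4 neighbours. Their log2 ratios were close to 0, with 95% intervals of -0.23 to 0.23 for Ccl3 and -0.25 to 0.26 for Ccl4. Both were dim, with WT means of 6.36 and 7.51. With an offset of 10 in place of 50 intensity units in the background correction the ratios were -0.02 and 0.01, and on the scanner's processed signals -0.18 and -0.03. The difference between these genes and Ccl9 or Ccl6 was not tested.

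Ccl2 and Ccl7, also called MCP-1 and MCP-3, are monocyte attractants and neighbours on chromosome 11. Ccl7 had the widest spread of the chemokine genes, with log2 ratios of -0.73, 3.70, 0.33 and 2.19 on the arrays of replicates 1 to 4. Its log2 signals were 9.53, 7.96, 9.47 and 8.18 in WT and 8.81, 11.65, 9.80 and 10.36 in Ad/NICD, so the groups overlapped. The mean ratio was 1.37 ± 0.74 (adjusted p = 0.451 in limma), falling to 0.60 when replicate 2 was left out and reaching 2.07 when replicate 1 was. Ccl2 had the same order of arrays, with ratios of -0.57, 2.11, -0.04 and 1.94 and a mean of 0.86 ± 0.52 (adjusted p = 0.494 in limma). Its mean was 0.44 without replicate 2, 0.50 without replicate 4 and 1.34 without replicate 1. For both genes the WT samples of replicates 2 and 4 were low and the Ad/NICD samples of replicates 2 and 4 were high. Ccl11 and Ccl12, which lie between Ccl7 and Ccl8, had 1.22 ± 0.33 and 0.68 ± 0.52. Of these, Ccl11, the eosinophil attractant eotaxin, was higher on 4 of 4 arrays (adjusted p = 0.205).

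**Figure D2:**
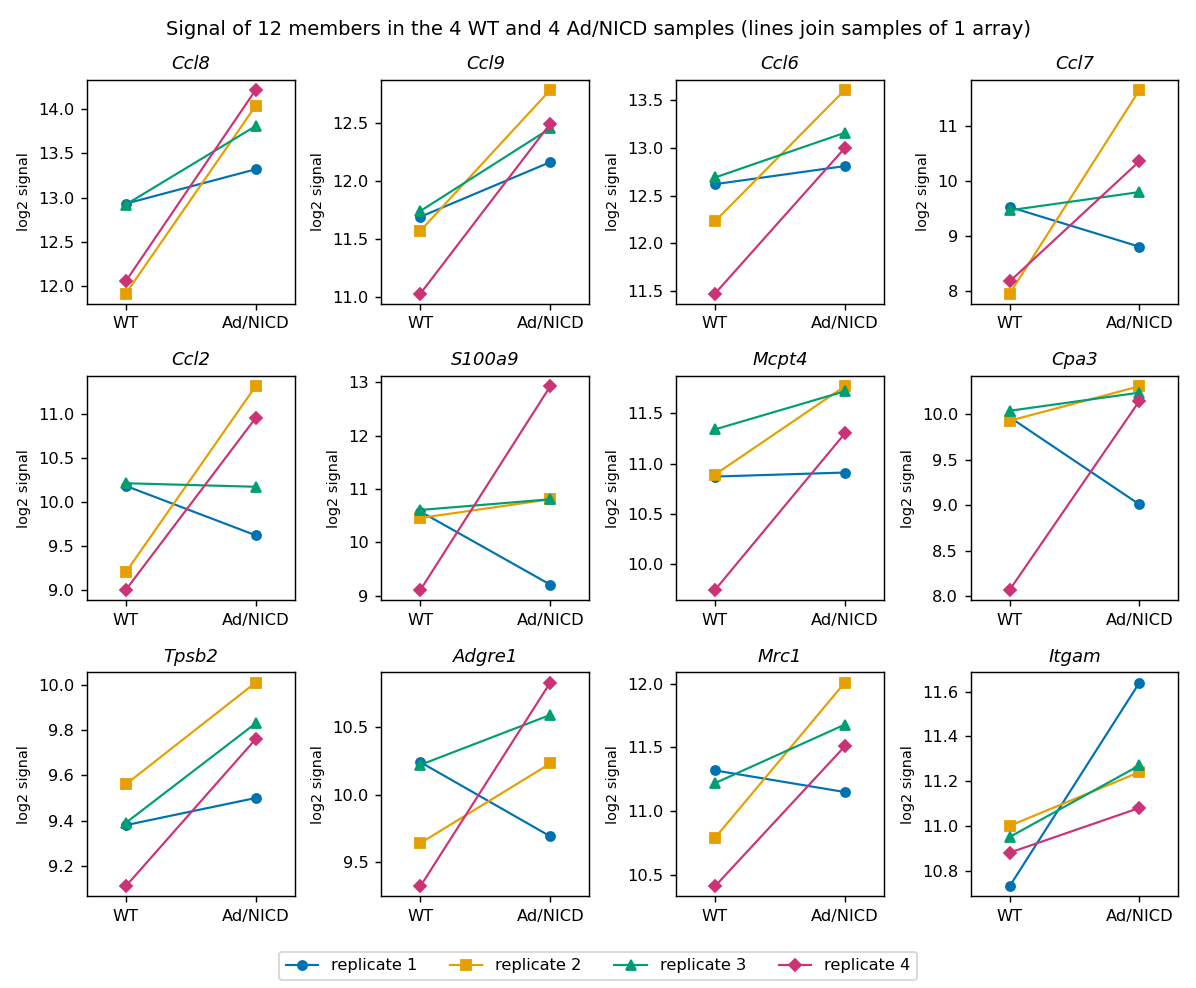
Log2 signal (vertical axes, each with its own range) of 12 genes in the 4 WT and 4 Ad/NICD samples, with a line joining the samples of 1 array. For Ccl8, Ccl9, Ccl6 and Itgam the Ad/NICD samples all lie above the WT samples, while for Ccl7, Ccl2, S100a9, Cpa3, Adgre1 and Mrc1 the line of replicate 1 falls.

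The classic inflammatory cytokine genes had smaller or uneven ratios. Il6 had log2 signals of 6.17, 5.97, 5.96 and 5.91 in WT and of 6.16, 6.62, 6.55 and 6.45 in Ad/NICD. It was well above background in 1 WT sample and 3 Ad/NICD samples, so it entered the fit only through the group where it was high, and its ratio is a description with no test. The ratio of 0.44 was 0.93 with an offset of 10 in place of 50, and 2.11 on the scanner's processed signals, so its size is not settled by these data. Tnf had -0.02 ± 0.11, with a 95% interval of -0.28 to 0.25. Il1b, the gene of interleukin 1 beta, had 0.18 ± 0.26 (1.08 in replicate 4, -0.47 in replicate 1), and Cxcl1 had 0.27 ± 0.15. As a group, 9 of 11 measured cytokine and chemokine genes lay above 0, with a median of 0.44, or 8 of 10 with a median of 0.57 without Il6. The median was -0.17, 0.65, 0.20 and 1.08 on the 4 arrays.

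Macrophage surface markers and lysosomal genes were spread around a median of 0.17, with 11 of 17 above 0. With median centring the median was -0.21, against -0.32 for all gene names. The array medians of the 17 genes were -0.40, 0.55, -0.01 and 0.70. On the array of replicate 1, 16 of 17 lay below 0, and on that of replicate 4 all 17 lay above 0. Without replicate 4 the median was 0.03, and without replicate 2 it was 0.02.

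The macrophage genes with the highest means were Fcgr1, Mrc1, Ccr2, Adgre1 and Cx3cr1. Fcgr1, the high-affinity receptor for IgG, had 0.80 ± 0.37, with ratios of -0.28, 1.45, 0.29 and 1.76. Mrc1, the mannose receptor of resident macrophages, had log2 signals of 11.32, 10.79, 11.22 and 10.41 in WT and of 11.15, 12.01, 11.68 and 11.51 in Ad/NICD. Only replicate 1 had a lower Ad/NICD than WT sample, and the mean ratio was 0.65 ± 0.25 (adjusted p = 0.315 in limma). The chemokine receptors Ccr2, which binds Ccl2, and Cx3cr1 had 0.50 ± 0.26 and 0.47 ± 0.24, each above 0 on 3 of 4 arrays. The other probes of Cx3cr1 had means of 0.43 and -0.04. Adgre1, a surface receptor long used to mark mouse macrophages, had 0.48 ± 0.32 on its brighter probe and 0.04 on its other probe. The means of Fcgr1, Ccr2, Cx3cr1 and Adgre1 depended on single replicates. Without replicate 4 they were 0.49 for Fcgr1, 0.31 for Ccr2, 0.30 for Cx3cr1 and 0.14 for Adgre1, and without replicate 1 they were 1.16, 0.82, 0.75 and 0.82.

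Itgam, which encodes the CD11b integrin of myeloid cells, was the sole macrophage gene with a ratio above 0 on all 4 arrays. Its log2 signals were 10.73, 11, 10.95 and 10.88 in WT and 11.64, 11.24, 11.27 and 11.08 in Ad/NICD. The groups did not overlap, and the ratio was 0.42 ± 0.14 (adjusted p = 0.259 in limma). With median centring it was -0.08, where the median of all gene names was -0.32. Itgam went against its group by array, being highest on the array of replicate 1, at 0.91. Its other probes had means of 0.30 and 0.01, and the first of these had -0.07 on the array of replicate 1. Itgax, the neighbouring gene on chromosome 7 that encodes CD11c, had -0.13 ± 0.076.

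The 3 genes of complement C1q, which macrophages of many tissues make, lie next to each other on chromosome 4 and had similar array orders. C1qc had log2 signals of 12.34, 12.02, 12.46 and 11.89 in WT and of 12.33, 12.72, 12.63 and 12.59 in Ad/NICD. Its ratio was 0.39 ± 0.15 (adjusted p = 0.313 in limma), or -0.03 with median centring, against a median of -0.32 for all gene names. The WT sample of replicate 3 lay above the Ad/NICD sample of replicate 1, so the groups overlapped. C1qa had 0.22 ± 0.20 and C1qb 0.15 ± 0.25.

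The remaining macrophage genes had means between -0.16 and 0.17, each with a 95% interval that held 0. They were the lysosomal genes Cd68, Ctss and Lyz2, the growth factor receptor Csf1r, the scavenger receptor Cd163, the lipid receptor Trem2 and the lipopolysaccharide co-receptor Cd14. Cd68 had 0.03 ± 0.25, with an interval of -0.59 to 0.66. Csf1r had -0.03 ± 0.28, with an interval of -0.73 to 0.68 and ratios of -0.88 and 0.84 on the arrays of replicates 1 and 4. For both genes the interval is too wide to show that the level was alike in WT and Ad/NICD.

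The mean ratio and its error for each gene are set among all gene names in the plot of effect and error. Ccl7, S100a8 and S100a9 had the largest errors of the 36, at 0.74, 0.85 and 0.83.

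**Figure D3:**
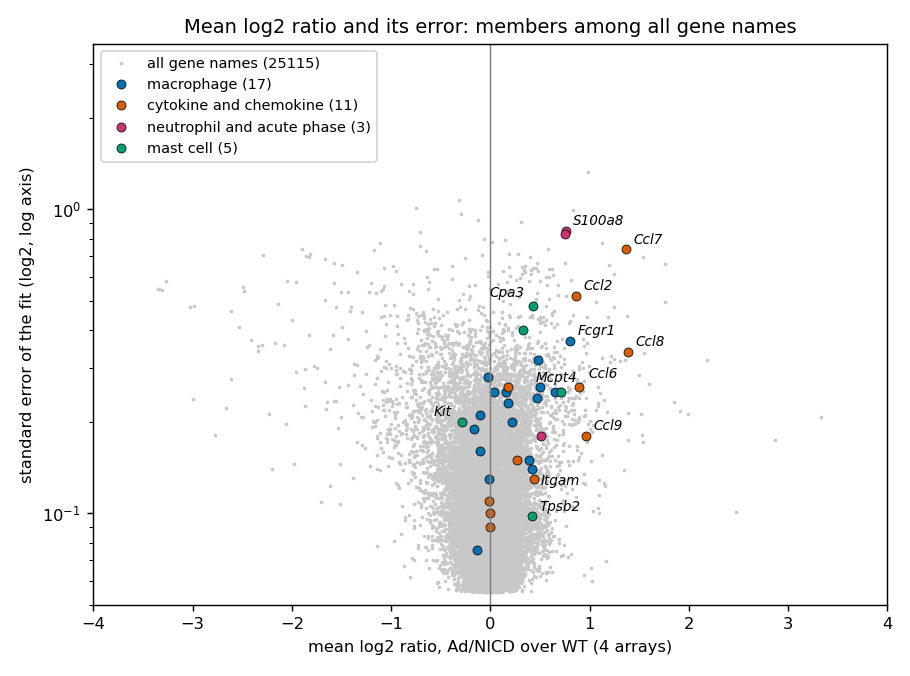
Mean log2 ratio of Ad/NICD over WT (horizontal axis) and its standard error (vertical axis, log scale) for 25115 gene names in grey and the 36 measured genes in colour by group. Ccl8, Ccl9 and Ccl6 lie to the right at errors of 0.34, 0.18 and 0.26, while Ccl7 and S100a8 lie at 0.74 and 0.85.

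S100a8 and S100a9 encode the subunits of calprotectin, a calcium-binding complex abundant in neutrophils, and are neighbours on chromosome 3. They are given in full after their values were seen, as are Ccl2, Fcgr1, Cpa3 and Cma1. S100a9 had log2 signals of 10.58, 10.46, 10.61 and 9.11 in WT and of 9.21, 10.81, 10.81 and 12.93 in Ad/NICD. S100a8 had 8.69, 8.55, 8.65 and 7.21 in WT and 7.42, 8.87, 8.68 and 11.19 in Ad/NICD. In both genes the Ad/NICD sample of replicate 4 was the highest of the 8, the WT sample of replicate 4 the lowest, and the Ad/NICD sample of replicate 1 the second lowest. The replicate 4 ratios were 3.98 for S100a8 and 3.82 for S100a9, and those of replicate 1 were -1.28 and -1.37. Their means of 0.76 ± 0.85 and 0.75 ± 0.83 (adjusted p = 0.72 and 0.717 in limma) became -0.31 and -0.28 without replicate 4.

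The stretch before the start of S100a8 lies at chr3:90668921-90669070 on the + strand, and that of the mast cell gene Mcpt4, below, at chr14:56062311-56062460 on the - strand. They are shown to set a neutrophil and a mast cell gene beside the chemokine genes, with the same marks.
S100a8: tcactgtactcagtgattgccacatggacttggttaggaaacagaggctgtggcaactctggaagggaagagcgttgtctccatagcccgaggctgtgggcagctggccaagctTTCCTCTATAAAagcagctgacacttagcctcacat
Mcpt4: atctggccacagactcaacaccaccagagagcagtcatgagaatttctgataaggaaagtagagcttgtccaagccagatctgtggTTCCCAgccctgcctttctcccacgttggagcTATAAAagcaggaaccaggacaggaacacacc
In S100a8 a PU.1 core on the reverse strand stands directly before a TATA box, and in Mcpt4 the capitals are an RBPJ core on the reverse strand and a TATA box, the kinds also marked in Ccl8.

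Saa3, a serum amyloid gene of the acute phase response that fat tissue and macrophages express, had log2 signals of 6.66, 6.40, 6.51 and 7.69 in WT. In Ad/NICD it had 6.70, 7.26, 6.71 and 8.62. Both samples of replicate 4 were the high ones, and the ratio of 0.51 ± 0.18 (adjusted p = 0.284 in limma) lay above 0 on all 4 arrays, at 0.04 on that of replicate 1. With an offset of 10 the ratio was 0.71, and on the scanner's processed signals 0.94.

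Of 5 mast cell genes, 4 lay above 0. Their median was 0.42 (-0.09 with median centring, against -0.32 for all gene names). The array medians of the 5 genes were -0.56, 0.38, 0.28 and 1.55. Without replicate 4 their median was -0.13. Mcpt4, a chymase of connective tissue mast cells, had log2 signals of 10.87, 10.89, 11.34 and 9.74 in WT and of 10.91, 11.77, 11.72 and 11.30 in Ad/NICD. Its ratio was 0.71 ± 0.25 (adjusted p = 0.29 in limma), higher on 4 of 4 arrays but at 0.04 on that of replicate 1. The WT sample of replicate 4 lay far below the other WT samples. Tpsb2, a tryptase, had 9.38, 9.56, 9.39 and 9.11 in WT and 9.50, 10.01, 9.83 and 9.76 in Ad/NICD. Its ratios of 0.13, 0.45, 0.44 and 0.65 were the most even of the 5 genes, although its other probe spread from -0.38 (replicate 1) to 1.44 (replicate 4). The mean was 0.42 ± 0.098 (adjusted p = 0.173 in limma), or -0.09 with median centring, against a median of -0.32 for all gene names.

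Cpa3, the granule carboxypeptidase, and Cma1, another chymase, had nearly the same pattern over samples. Cpa3 had log2 signals of 9.97, 9.93, 10.04 and 8.07 in WT and of 9.01, 10.31, 10.24 and 10.15 in Ad/NICD. Cma1 had 8.26, 8.21, 8.28 and 6.83 in WT and 7.44, 8.50, 8.44 and 8.52 in Ad/NICD. In both, 6 of the 8 samples were close together, and the WT sample of replicate 4 and the Ad/NICD sample of replicate 1 were low. Their ratios thus ran from -0.97 to 2.08 and from -0.82 to 1.70, with means of 0.42 ± 0.48 and 0.33 ± 0.40. Kit, the stem cell factor receptor that mast cells need and other cells also carry, had -0.28 ± 0.20 and was higher on 1 of 4 arrays. Its level was low in both samples of replicate 4, at 8.35 in WT and 8.34 in Ad/NICD, against 8.80 to 9.93 in the other samples. The mammary epithelium marker Krt18 was also low in these samples of replicate 4, at 6.33 in WT and 6.71 in Ad/NICD. A link between Kit and Krt18 was not tested.

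The groups set side by side had medians of 0.17 for macrophage genes, 0.44 for cytokines and chemokines, 0.75 for the neutrophil and acute phase genes and 0.42 for mast cell genes, and -0.0059 for all gene names. The 0.44 is the ratio of Il6 itself, which passed the filter only through the Ad/NICD samples, and without Il6 the median was 0.57. These groups hold few genes that share the same 8 samples, and their differences were not tested. In each group the array of replicate 1 gave the lowest median and that of replicate 4 the highest.

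**Figure D4:**
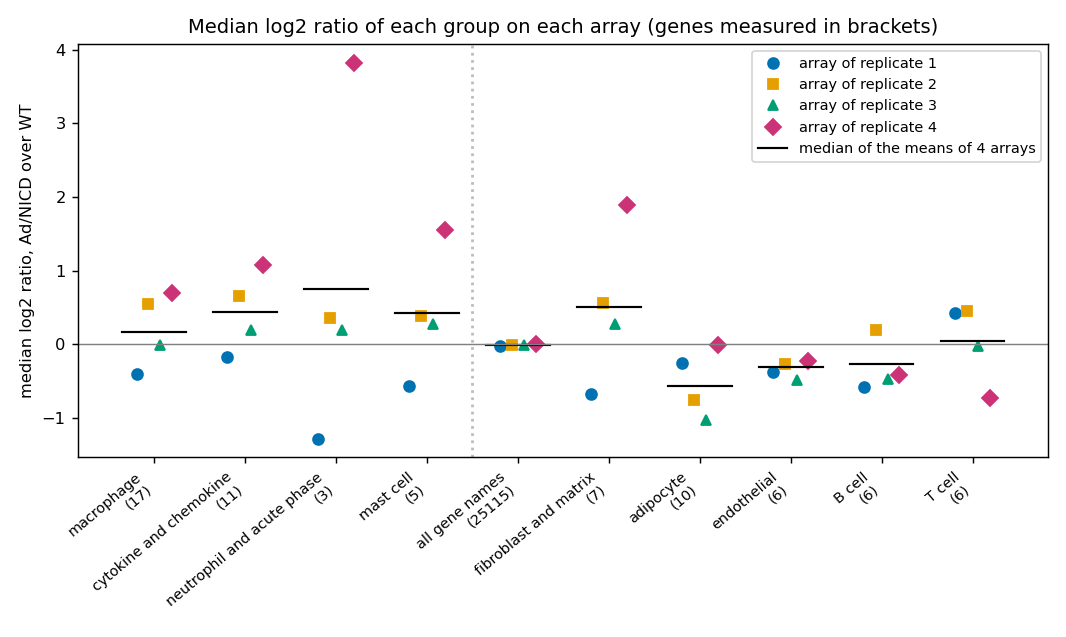
Median log2 ratio of Ad/NICD over WT (vertical axis) on each of the 4 arrays for the 4 groups, for all gene names and for marker lists of other cell types, with the number of genes measured in brackets. The neutrophil and acute phase group runs from -1.28 to 3.82, all gene names from -0.02 to 0.01, and the fibroblast and matrix list from -0.67 to 1.89.

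Other cell types in the samples also differed by array. The list of 7 fibroblast and matrix genes had array medians of -0.67, 0.56, 0.28 and 1.89, in the same order as the immune genes, and all 7 means lay above 0. Its summed signal ran from 58700 to 199000 in WT and from 148000 to 224000 in Ad/NICD. The 10 adipocyte markers were all measured, with array medians of -0.25, -0.75, -1.03 and -0.01 and summed signals of 195000 to 262000 in WT and 110000 to 185000 in Ad/NICD. The 6 B cell markers had array medians of -0.58, 0.19, -0.47 and -0.42, and the 6 measured T cell markers 0.43, 0.45, -0.03 and -0.73. Summed B cell signal ran from 16700 to 27200 in WT and from 14400 to 18700 in Ad/NICD, and that of T cells from 19400 to 37300 and from 23100 to 36400. The part of these cells in the immune gene values was not tested.

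Endothelial, skeletal muscle and erythroid markers had medians below 0 on all 4 arrays, and mammary and mesothelium markers had medians of either sign or at 0. The 6 skeletal muscle genes had array medians of -0.93, -2.58, -0.96 and -3.95. Their summed signal ran from 2020 to 115000 in WT and from 849 to 6780 in Ad/NICD. Myh4 was at 15.58 in WT replicate 4, against 9.76, 11.97 and 9.65 in WT replicates 1 to 3. The 6 mammary epithelium genes had array medians of -1.07, -1.16, 0.07 and 0.00. Their summed signal ran from 508 to 23600 in WT and from 530 to 26700 in Ad/NICD. Krt18 was at 6.33 and 6.71 in the WT and Ad/NICD samples of replicate 4, against 12.88 to 14.26 elsewhere. The 6 endothelial genes had array medians of -0.37, -0.27, -0.49 and -0.23 and the 4 erythroid genes -1.08, -0.37, -1.24 and -0.38. The 3 measured mesothelium genes had -0.09, -0.40, 0.08 and 0.13. Both samples of replicate 4 had the male pattern of sex-linked genes, with Xist at 6.12 and 5.87 against 10.15 to 10.45 in the other 6 samples, and the median of 4 Y-linked genes at 8.19 and 7.96 against 5.84 to 5.89. The array with the highest immune gene ratios thus compared samples of the other sex than the rest. The known Notch target Heyl was higher by 2.87 ± 0.17 (adjusted p = 0.0399 in limma) and lay above 0 on every array. The list of 5 Notch targets had array medians of 0.05, 0.63, 0.42 and 1.10, with 4 of 5 means above 0. Hey1, on the same list, had -0.20 ± 0.18 and was higher on 1 of 4 arrays.

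Wider lists of the same biology gave 0 genes past an adjusted p of 0.05 in the ratio fit. Of 37 other macrophage and monocyte genes measured, 24 lay above 0 with a median of 0.10, where 48.4% of all gene names lay above 0. An unadjusted p under 0.05 was found for 4 of the 37, all higher, against 6.25% of all gene names higher and 8.98% lower. They were Lyve1, a hyaluronan receptor of lymphatic vessels and of perivascular macrophages, at 1.13 ± 0.16, Pf4 at 0.96 ± 0.24, the transglutaminase gene F13a1 at 0.72 ± 0.24 and the IgG receptor gene Fcgr4 at 0.69 ± 0.26. Lyve1 had ratios of 0.94, 1.65, 0.75 and 1.17, with an adjusted p of 0.117 in limma, or 0.055 under the random block. Its level was between 9.34 and 9.86 in WT and between 10.20 and 11.51 in Ad/NICD, without overlap.

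Of 19 other chemokine genes measured, 10 lay above 0, with 2 higher and 3 lower at an unadjusted p under 0.05, against the same 6.25% and 8.98%. Cxcl16, a membrane-bound chemokine of macrophages, had 0.44 ± 0.099. Cxcl9, an interferon-induced attractant of T cells, had -0.49 ± 0.11, and Cxcl13, the B cell attractant, had -0.55 ± 0.19. Of 24 receptors, 4 were higher and 1 lower at that level, against the same shares. Counts this small give no reading of a list against the background. Il1r1, the interleukin 1 receptor, had log2 ratios of 0.49, 1.53, 0.86 and 1.01 and a mean of 0.98 ± 0.17. Its adjusted p in limma was 0.131 in the ratio fit, 0.0261 under the random block and 0.0413 in separate channels without a block, so 2 of these 3 fits called it. Csf3r, the receptor of the neutrophil growth factor, had 0.36 ± 0.092, Tnfrsf1b 0.19 ± 0.06 and Cxcr5, the receptor for Cxcl13, -0.53 ± 0.15.

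Other cytokines had a median of 0.08, with 8 of 11 above 0, and NF-kB response genes a median of 0.00, with 7 of 13 above 0. Il10 is among the 8 but was well above background in 1 WT and 3 Ad/NICD samples, so it passed the filter only through Ad/NICD. Csf1, the growth factor that macrophages need, had 0.51 ± 0.19. Vcam1, an adhesion molecule that NF-kB induces, had 0.20 ± 0.08. Of 15 other neutrophil and eosinophil genes, 13 lay above 0 and 0 had an unadjusted p under 0.05. Stfa2l1 and Mmp8 are among the 13. They were well above background in 1 and 2 WT samples and in 3 Ad/NICD samples each, so they passed the filter only through Ad/NICD. Stfa1, below 0, passed only through WT (3 WT and 2 Ad/NICD samples). In replicate 4 the median of the 15 genes reached 1.08, while the other array medians lay between -0.12 and 0.14. There 14 of the 15 lay above 0, with Camp at 3.02, Ltf at 2.81 and Retnlg at 2.74, while Stfa1 had -2.06. Ltf had -2.16 on the array of replicate 2 and a mean of 0.02. Its WT level in replicate 4 was 6.29, against 10.05, 11.55 and 9.98 in WT replicates 1 to 3. In contrast to Saa3, 5 of 6 other acute phase genes lay below 0. Of these, Orm3 had -1.37 ± 0.31 and Hp, the haptoglobin gene that fat cells also express, had -1.11 ± 0.35, with adjusted p of 0.167 and 0.248 in limma. The other mast cell genes, 10 of 18 of them measured, had a median of -0.02, and their array medians lay between -0.21 and 0.31.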

How the data were processed

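Scans were read with Agilent Feature Extraction 11.5, per the submitters' processing notes. The deposited tables hold spot intensity values (foreground, background and processed signals, not normalised between arrays), and a log10 ratio of red over green processed signal. The tables of same-numbered WT and Ad/NICD samples were identical for 4 of 4 pairs. Median foreground was 72 to 88.5 units over a background of 45 to 46 in green and 34 to 43.5 over 19 to 20 in red, and 58.1% to 68.6% of spots were well above background. The authors' deposited value table is on a log2 scale. Each column followed the log2 processed signal of 1 channel, with its 75th percentile at 0 and medians between -3.84 and -3.52, and no step behind it is given in the sources used here.

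In limma 3.58.1 (R 4.3.3) background was corrected by normexp, offset 50, and dyes were balanced by loess within arrays, where control spots had weight 0. Of 55681 probes, 28026 were named through RefSeq accessions (GRCm38.p6, for names and neighbours). The array of replicate 1 has no flags for background. They were rebuilt as signal above 6.14 median absolute deviations of negative control spots. This rule gave 98% or more of the scanner's flags when tried on each other array. Each gene name was represented by its brightest kept probe. The 4 log2 ratios were tested against 0 with limma (lmFit, eBayes). On simulated ratios with 25115 genes and no variation shared between genes, 92% of changes of 1 on the log2 scale were called. The noise was normal, with the variances that the fit itself had estimated. The share is thus no guide to what would be called in the real data, where Ccl8 at 1.39 did not pass. Levels are single-channel log2 values, scaled by Aquantile after the loess step.

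The array is the pair. Deviations of same-numbered samples from their group means correlated at 0.18, 0.17, 0.56 and 0.53 for replicates 1 to 4, every pair above 0.1. Samples of unlike number correlated at -0.53 to 0.28. The 0.28, of WT replicate 1 with Ad/NICD replicate 3, was above the 0.18 of the replicate 1 pair. The genes and lists were chosen with earlier results of these data known. Genes given in full had an unadjusted p under 0.05, the same sign on 4 arrays or a mean of at least 1 in size, and from the wider lists those with a call or among the 4 lowest p. Promoter stretches were chosen after the values were seen. Alternatives were other background and scaling settings, no filter, the mean of probes, eBayes trend and robust settings, separate channels with and without a block, the authors' table and leaving out each replicate.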

Additional observations from a re-analysis of the deposited data

Results flagged for a closer look

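Of 112 sets of 4 values (ratios over arrays, levels within WT and within Ad/NICD, and the 4 groups' array medians), 13 had an end sample far from the others by Dixon's 95% value for the gap as a share of the whole range. About 1 in 20 such sets, or 5.6, would be so by chance if the sets were independent. They are not, because all come from the same samples and the ratios are made from the levels. The 13 thus cannot be weighed against 5.6. In WT, replicate 4 was the low sample for the mast cell genes Kit (gap 0.97 of the range), Cma1 (0.952) and Cpa3 (0.942), for the neutrophil genes S100a8 (0.906) and S100a9 (0.902) and for Cd163 (0.898) and Cd14 (0.839). WT replicate 2 was the low sample for Ctss (0.898) and Lyz2 (0.834). In Ad/NICD, replicate 1 was the low sample for Cma1 (0.924) and Cpa3 (0.882), and replicate 4 the high sample for Ccl3 (0.914) and Il1b (0.848). The samples of replicate 4 had the male pattern of sex-linked genes and low Krt18, a mammary epithelium marker (6.33 in WT and 6.71 in Ad/NICD). The WT sample of replicate 4 also had the highest level of the muscle gene Myh4, at 15.58. The part of sex and of these tissues in the values was not tested.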

How the results depend on the processing

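Precision is limited by 4 arrays. Dim genes such as Il6, Ccl3 and Saa3 had signals near background in some or all samples, and the size of their ratios depended on the background setting. Saa3 had 0.51 in the main fit, 0.71 with an offset of 10 and 0.94 on the scanner's processed signals. Over all gene names 12 passed an adjusted p of 0.05 (7 higher, 5 lower), with 3825 at an unadjusted p under 0.05. The count was 5 on the scanner's processed signals, 3 on the authors' value table with the replicate block of array pairs, and 0 with median centring, with no filter on dim probes or with eBayes trend and robust settings. It was 256 in separate channels with no replicate block (100 higher, 156 lower) and 496 with a random replicate block (212 higher, 284 lower), and leaving out each replicate gave 0 to 43, with 43 without replicate 4. For these 0 counts, 9617, 5092 and 2897 gene names had an unadjusted p under 0.05. The block changed 1 call among the 36 genes, that of Ccl9, which passed with the random block alone (adjusted p = 0.0342).

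Of the group medians, those of neutrophil and mast cell genes turned to -0.28 and -0.13 without replicate 4, and median centring gave -0.21 for macrophage and -0.09 for mast cell genes. The cytokine and chemokine median of 0.44 was 0.90 with an offset of 10, 0.89 on processed signals and 0.84 on the authors' table. Median centring put the median of all gene names at -0.32. Relative to that median 28 of 36 genes lay higher, as they did relative to the median of the loess values. With median centring 13 genes changed sign: Adgre1 (-0.04), Cd68 (-0.39), Itgam (-0.08), Cx3cr1 (-0.01), C1qa (-0.21), C1qb (-0.31), C1qc (-0.03), Ctss (-0.19), Ccl3 (0), Ccl4 (-0.31), Cpa3 (-0.09), Tpsb2 (-0.09) and Cma1 (-0.07). Near 0, signs also turned for Cd163 (0.01) and Tnf (0) with an offset of 10, Ccl4 (-0.03) and Tnf (0.04) on processed signals, and Ccl4 (-0.08) and Tnf (0.01) on the authors' table. Leaving out each replicate in turn moved these 16 genes across or to 0: Cd68 (-0.18 to 0.28), Csf1r (-0.32 to 0.26), Cd14 (-0.29 to 0.07), Lyz2 (-0.28 to 0.09), Cd163 (-0.16 to 0.06), C1qb (-0.05 to 0.42), Ctss (-0.02 to 0.4), Trem2 (-0.29 to 0), Ccl3 (-0.06 to 0.07), Ccl4 (-0.1 to 0.07), Il1b (-0.12 to 0.4), Tnf (-0.13 to 0.06), S100a8 (-0.31 to 1.44), S100a9 (-0.28 to 1.46), Cpa3 (-0.13 to 0.89) and Cma1 (-0.13 to 0.71). The cause of these changes was not tested.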
